A study of Mus musculus with 12 samples.

Results

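The collagen genes of the mouse were followed through the growth and regression of a YAP1-driven rhabdomyosarcoma, a soft tissue tumour whose cells resemble immature muscle. They were all genes whose symbol in the array's probe-to-gene table consists of Col, a type number, the letter a and a chain number. Of the 19937 genes measured, 44 were collagen genes. Each was read by 1 probe set, a group of array probes summarised as 1 value. Col6a5 and Col6a6 had a second probe set, and there the one with the higher mean over the 12 arrays was used. By textbook class, 11 were fibrillar, 8 belonged to basement membranes, 6 to the beaded filaments of type VI, 9 were fibril-associated, 4 were transmembrane, and 6 were short-chain network and other collagens.

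The study concerned YAP1, a transcriptional coactivator that the Hippo pathway restrains, and its loss from this tumour. Donor mice on the C57BL/6 background carried 3 alleles. The first was Myf5Cre, a Cre recombinase driven by Myf5, a gene of the muscle lineage. The others were R26-LSL-rtTA, a doxycycline-dependent activator that Cre releases, and Col1a-Teto-hYAP1 S127A, a human YAP1 with a changed amino acid that doxycycline switches on. After 4 weeks of doxycycline, interstitial cells were isolated from the hindlimb muscle of the donors and placed in the gastrocnemius of NOD/SCID hosts given the drug. Tumours were taken on day 0 of withdrawal (TUM), or 3 days (OFF3) or 6 days (OFF6) after the drug was removed. Hindlimb muscle of mice with the same 3 alleles that never received doxycycline was the control (CTL). The controls thus carried the YAP1 transgene too, whose name contains Col1a, and host cells did not. Each group had 3 arrays. Whether the 3 came from separate animals is not in the labels. The p-values thus reflect only the spread between arrays, which may be technical. A tumour held donor cells and whatever host cells had entered it, and NOD/SCID mice lack mature T and B cells but keep fibroblasts, vessels and macrophages. In such bulk RNA, fewer cells of a type and less RNA per cell cannot be told apart.

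Collagens are triple helices of alpha chains that cells secrete to build the matrix. Types I, III and V assemble into the banded fibrils that bear load in the interstitium of muscle and in tendon. Type IV forms the sheet-like network of the basement membrane around each myofibre and vessel, and type VI forms beaded filaments that join the basement membrane to the interstitium. In skeletal muscle the interstitial cells, fibroblasts among them, make most of the fibrillar and type VI collagen.

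Values are log2 of the deposited intensity, and differences are log2 differences ± standard error (SE) of 1 linear model of all 12 arrays (limma), with Benjamini-Hochberg adjustment over all genes. An adjusted p under 0.05 is called a change. Median intensity per array ran from 86.74 to 93.05. Ccn1, a standard YAP1 target, was higher in TUM than in CTL by 1.78 ± 0.07 and fell by 1.48 ± 0.07 at day 3. Mki67, a proliferation marker, fell by 1.67 ± 0.12 at day 3. Mouse Yap1 fell by 0.29 ± 0.07, and whether its probes also read the human transgene was not tested. Array OFF6 2 stood apart, with a mean correlation over genes of 0.9911 to its own group and 0.9952 to OFF3. Of 8 myofibre markers all 8 were lower in TUM than in CTL (45.9% of all genes were), with a summed intensity of 64170 to 66270 in CTL and 19870 to 21270 in TUM. Of 6 macrophage markers all 6 were higher (30.3% of all genes were).

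RefSeq promoter windows, the 250 bases before a transcription start in GRCm38.p6, were found for 35 of the 44 genes (38 windows). Those of 4 genes are printed because they carry the main patterns: Col6a3 had the largest rise after withdrawal, Col3a1 rose at both times, Col1a2 did not rise, and Col18a1 fell by day 6. Capitals mark matches on either strand to GGAATG (the site of TEAD factors, the DNA-binding partners of YAP1), CCAAT or TATAAA, 3 motifs that do not overlap one another. The Col18a1 window belongs to the second of its 2 listed starts. The window of the other start holds ATTGG, the reverse complement of CCAAT, and neither GGAATG nor TATAAA.
Col6a3, chr1:90843972-90844221, minus strand: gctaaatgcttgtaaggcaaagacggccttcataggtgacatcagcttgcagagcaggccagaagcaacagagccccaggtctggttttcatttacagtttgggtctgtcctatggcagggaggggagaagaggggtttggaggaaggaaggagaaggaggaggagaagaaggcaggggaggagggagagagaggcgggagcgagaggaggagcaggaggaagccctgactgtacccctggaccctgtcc
Col3a1, chr1:45311288-45311537, plus strand: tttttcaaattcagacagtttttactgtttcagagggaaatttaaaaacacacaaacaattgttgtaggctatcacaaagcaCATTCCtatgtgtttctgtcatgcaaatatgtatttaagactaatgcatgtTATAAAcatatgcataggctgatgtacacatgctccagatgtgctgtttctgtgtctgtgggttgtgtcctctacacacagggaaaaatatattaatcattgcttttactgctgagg
Col1a2, chr6:4505368-4505617, plus strand: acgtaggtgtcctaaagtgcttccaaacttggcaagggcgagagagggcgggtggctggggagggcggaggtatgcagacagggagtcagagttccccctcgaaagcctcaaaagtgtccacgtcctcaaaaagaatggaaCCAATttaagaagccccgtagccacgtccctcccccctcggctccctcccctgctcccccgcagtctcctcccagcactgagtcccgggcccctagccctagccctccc
Col18a1, chr10:77113706-77113955, minus strand: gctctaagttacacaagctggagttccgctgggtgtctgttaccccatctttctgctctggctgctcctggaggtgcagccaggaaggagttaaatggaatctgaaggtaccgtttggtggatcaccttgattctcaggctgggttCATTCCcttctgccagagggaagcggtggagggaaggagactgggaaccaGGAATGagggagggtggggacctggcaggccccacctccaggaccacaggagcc
The Col3a1 window holds CATTCC, the reverse complement of GGAATG, 168 bases before the start and TATAAA at 117 bases. Col1a2 holds CCAAT at 109 bases, Col18a1 holds GGAATG at 54 bases and CATTCC at 104 bases, and these letters are not in the Col6a3 window. Over all collagen windows GGAATG was in 4 of 38 (10.5%), against 12.6% of 32851 windows of all genes. CCAAT was in 13 (34.2%, against 33.8%) and TATAAA in 5 (13.2%, against 12.4%). The collagen windows held the 3 motifs at about the rate of all genes, and a match is a description of letters, not of binding.

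Day 0 tumours differed from muscle in most collagen genes. Col12a1 was 6.89-fold, Col8a1 6.46-fold, Col18a1 5.18-fold and Col5a2 4.95-fold higher in the tumours, and Col1a2, Col1a1 and Col3a1 were 3.49-, 2.78- and 2.25-fold higher. The other side held Col15a1, a collagen of muscle and vessel basement membrane zones, which was 2.16-fold lower, and a long row of faintly read genes that were modestly lower. In all, 11 of 44 collagen genes were higher in TUM than in CTL, where 30.3% of all genes were, and 27 were lower, where 45.9% of all genes were. The median difference was -0.37, against -0.15 over all genes.

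Level and direction went together in this comparison. Of the 25 collagen genes above the median level of all genes (a mean log2 intensity of 7.18), 11 were higher and 11 lower, against 50.4% and 33.8% of all genes above that level. Of the 19 at or below it, 0 were higher and 16 lower by limma, against 10.2% and 58.1% of all such genes. Over all 44, an unadjusted limma p under 0.05 gave 11 higher and 28 lower, the 11 being the brighter genes already called higher. All genes at or below the median level had a median difference of -0.23, and all above it 0.22. The corresponding collagen medians were -0.49 and -0.12. With cyclic loess normalisation, which removes a level-dependent shift, the median over all genes moved from -0.15 to -0.00063, and the 19 faint collagen genes had a median of -0.24 with 2 higher and 13 lower. Of all genes called in this comparison 39.7% were higher, and 27.2% to 50.2% were under 4 other scalings. The plot of the difference against level shows the genes of types I, III, VIII, XII, XIV and XVIII named there well above the running median of all genes, Col15a1 below it, and most faint members slightly below it.

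**Figure D1:**
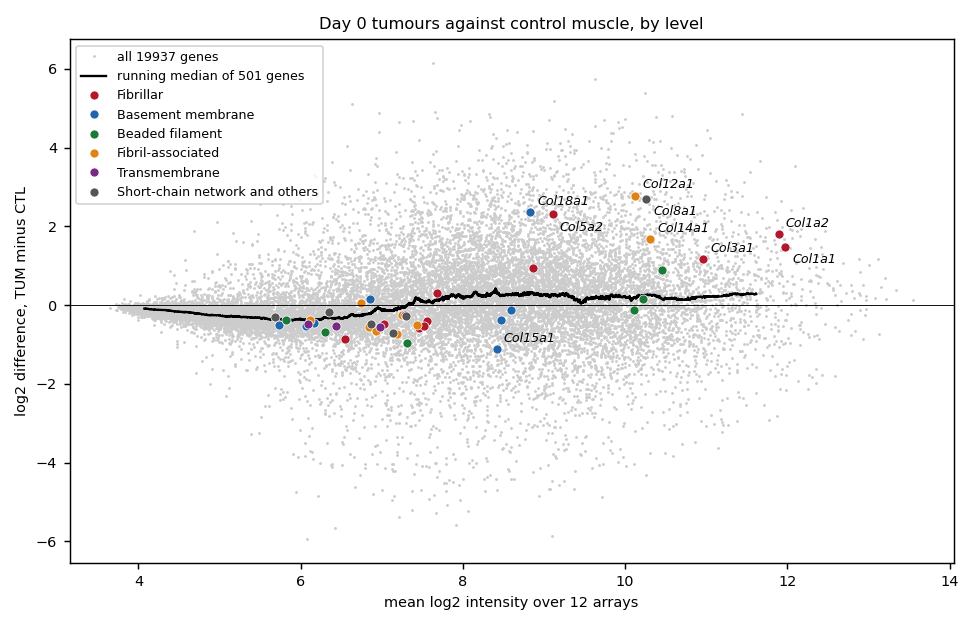
Log2 difference between day 0 tumours (TUM) and control muscle (CTL), 3 arrays each, against the mean log2 intensity over 12 arrays, for all 19937 genes (grey) and the 44 collagen genes (coloured by class); the black line is the running median of all genes. Collagen genes with a difference of 1 or more are named, and Col12a1, Col8a1, Col18a1 and Col5a2 lie above 2.

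In the first 3 days after doxycycline was removed, a large minority of the collagen genes rose. At day 3, 19 of 44 were higher than in TUM, where 13.4% of all genes were, and 0 were lower by limma, where 16% of all genes were. At an unadjusted p under 0.05 the counts were 23 higher and 1 lower, the latter Col19a1. With array weights in the fit, 33 were higher and 1 lower, where 31% and 25% of all genes were. The 3 type VI chains Col6a3, Col6a2 and Col6a1 rose 2.99-, 2.15- and 1.7-fold, and Col11a1, Col3a1, Col12a1 and Col8a1 rose 1.52- to 1.86-fold. The fitted difference was above 0 for 41 of the 44, and the median was 0.23, against 0.02 over all genes. The arrays of OFF3 lay wholly above those of TUM for 22 of the 44 collagen genes, against 22.1% of all genes. They lay wholly below for 0, against 22.7% of all genes. Of the 25 brighter members 16 rose, against 19.5% of all brighter genes, and of the 19 fainter ones 3 rose, against 7.27%. Leaving out OFF3 replicate 3 made Col19a1 a fall (-0.27, adjusted p = 0.0394), as did quantile normalisation, cyclic loess normalisation and array weights. Of all genes called at day 3, 45.5% were higher, and 56% under 75th percentile scaling.

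By day 6 the rise was smaller and mixed with falls. Then 15 of 44 collagen genes were higher than in TUM (14.9% of all genes) and 2 were lower (16.6% of all genes), the 2 being Col18a1 and Col1a2. With array weights, 25 were higher and 4 lower, where 28.4% and 24.5% of all genes were. The median was 0.20, against 0.05 over all genes. OFF3 and OFF6 were compared with the same TUM arrays, so the 2 comparisons are not independent. Of the 19 genes that rose by day 3, 12 were also higher at day 6, and these are 12 of the 15 higher at day 6. Without TUM replicate 1 the count at day 6 was 9 in place of 15. The fall of Col1a2 was lost without TUM replicate 2 or OFF6 replicate 3, and without OFF6 replicate 2 Col5a2 fell as well (-0.30, adjusted p = 0.013). The plot of all 44 differences shows this by class.

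**Figure D2:**
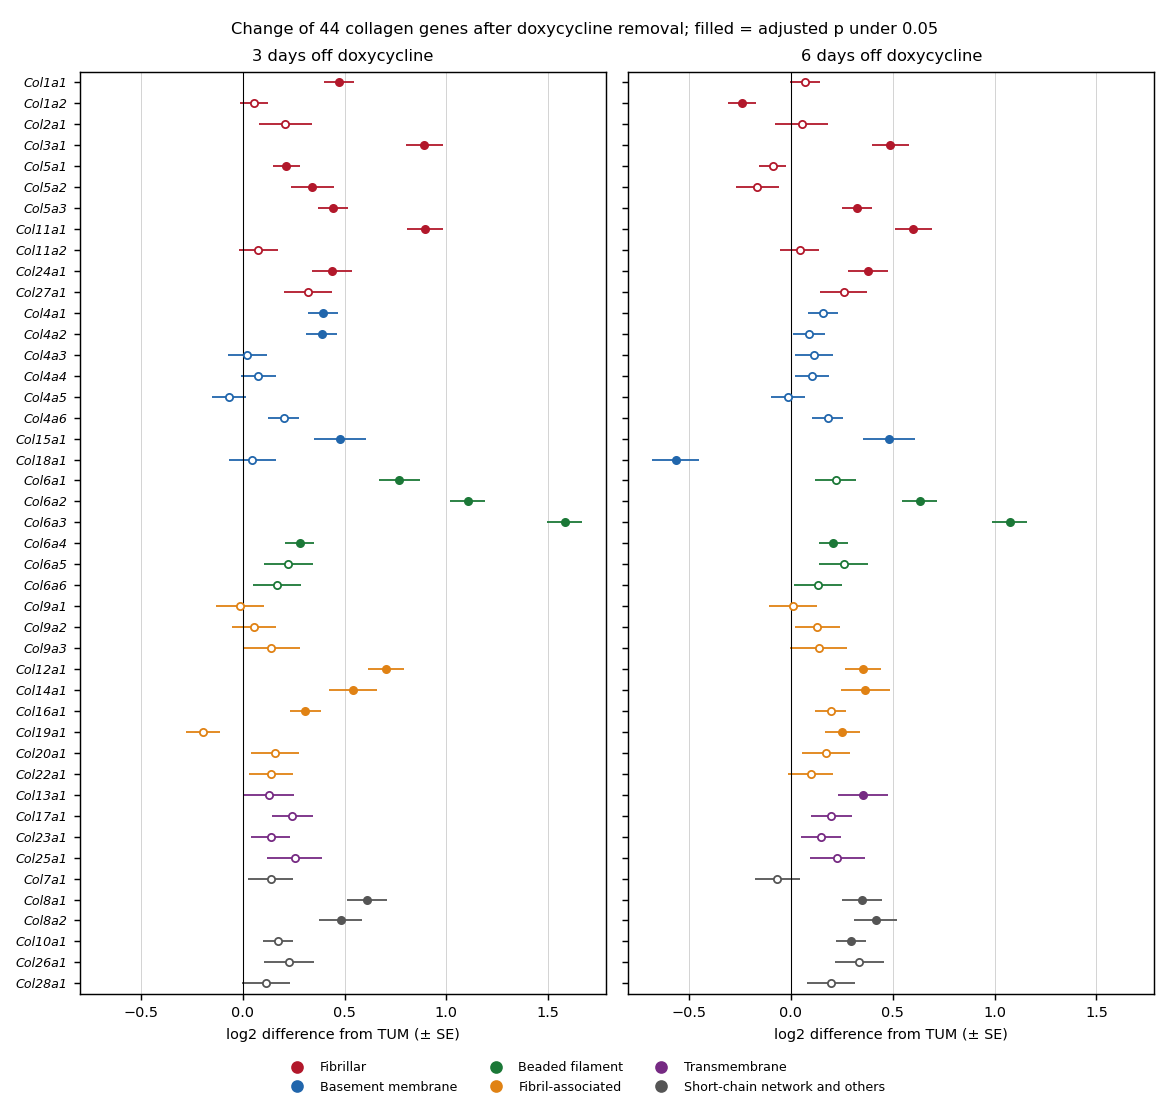
Log2 difference from day 0 tumours (± SE) of the 44 collagen genes, 3 days (left) and 6 days (right) after doxycycline removal, 3 arrays a group. Filled points have an adjusted p under 0.05: 19 genes at day 3, all to the right of 0, and 17 at day 6, of which Col18a1 and Col1a2 lie to the left.

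Of the 11 fibrillar genes, 7 rose at day 3 and 0 fell, where 13.4% and 16% of all genes did. At day 6, 4 were higher and 1 lower than in TUM (14.9% and 16.6% of all genes). Col1a1 encodes the main chain of type I collagen. It read 10.63, 10.78 and 10.78 on the CTL arrays, 12.22, 12.24 and 12.16 in TUM, 12.69, 12.73 and 12.62 in OFF3, and 12.26, 12.41 and 12.16 in OFF6. Every tumour array was above every muscle array, OFF3 was above TUM on all arrays, and OFF6 overlapped TUM. The difference was 0.47 ± 0.07 at day 3 (adjusted p = 0.000366) and 0.07 ± 0.07 at day 6 (adjusted p = 0.503). Col1a2, the second chain of type I, read 10.54, 10.61 and 10.61 in CTL, 12.37, 12.43 and 12.37 in TUM, 12.51, 12.47 and 12.36 in OFF3, and 12.18, 12.24 and 12.03 in OFF6. Here OFF3 overlapped TUM, and OFF6 lay below it. Col1a2 differed by 0.05 ± 0.07 at day 3 (adjusted p = 0.64) and fell by 0.24 ± 0.07 at day 6 (adjusted p = 0.0179). That fall lost its call without TUM replicate 2 (-0.22, adjusted p = 0.0639) or OFF6 replicate 3 (-0.18, adjusted p = 0.0862), and under quantile, 75th percentile and cyclic loess scaling.

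Col3a1, the single chain of type III, which mixes into type I fibrils of soft tissue, moved further. It read 9.72, 9.75 and 9.75 in CTL, 10.90, 10.95 and 10.88 in TUM, 11.85, 11.78 and 11.76 in OFF3, and 11.32, 11.65 and 11.22 in OFF6. The 4 groups did not overlap, and OFF3 was the highest. Col3a1 rose by 0.89 ± 0.09 at day 3 (adjusted p = 1.22e-05) and was 0.49 ± 0.09 above TUM at day 6 (adjusted p = 0.0012).

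Type V collagen starts and limits the width of type I fibrils. Its chain gene Col5a2 read 7.29, 7.43 and 7.28 in CTL, 9.62, 9.65 and 9.65 in TUM, 10.08, 10.04 and 9.83 in OFF3, and 9.39, 9.74 and 9.29 in OFF6. It was far higher in every tumour array than in muscle, with OFF3 above TUM and OFF6 on both sides of it. The difference at day 3 was 0.34 ± 0.11 (adjusted p = 0.0282), and that of Col5a1 0.21 ± 0.07 (adjusted p = 0.0264). Both calls were lost when any 1 of TUM replicates 1, 2 and 3 or OFF3 replicates 1 and 2 was left out, with adjusted p from 0.0512 to 0.0992. The third chain gene, Col5a3, went the other way in the tumours, at -0.58 ± 0.07 in TUM against CTL (adjusted p = 1.28e-05), where its partners Col5a1 and Col5a2 were 0.95 ± 0.07 and 2.31 ± 0.11 higher. It rose by 0.44 ± 0.07 at day 3 (adjusted p = 0.00062) and was 0.32 ± 0.07 above TUM at day 6 (adjusted p = 0.00485).

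Col11a1, a fibrillar chain best known from cartilage, read 7.18, 7.06 and 6.96 in CTL, 7.42, 7.39 and 7.34 in TUM, 8.38, 8.39 and 8.07 in OFF3, and 8.02, 8.03 and 7.91 in OFF6. The largest step of Col11a1 came after withdrawal: TUM was 0.32 ± 0.09 above CTL (adjusted p = 0.00653, a call lost under quantile, median and 75th percentile scaling), and OFF3 was 0.89 ± 0.09 above TUM (adjusted p = 1.06e-05). Its cartilage partners did not pass the test after withdrawal. Col2a1, the main cartilage collagen, differed by 0.21 ± 0.13 at day 3 (adjusted p = 0.282) and Col11a2 by 0.08 ± 0.10 (adjusted p = 0.636). Of 9 cartilage markers, 2 rose at day 3 (13.4% of all genes did) and 1 was higher at day 6 (14.9% of all genes). Comp, a matrix protein of cartilage and tendon, rose by 0.68 ± 0.07, while Acan, the cartilage proteoglycan aggrecan, averaged 4.89 in TUM and 5.16 in OFF3. The summed intensity of the cartilage list was 1162 to 1196 in TUM and 1085 to 1240 in OFF3, ranges that overlap. This sum is weighted to Sox9, the brightest gene of the list. Sox9 averaged 7.83 in CTL, 9.61 in TUM and 9.33 in OFF3, so after withdrawal its mean moved opposite to that of Comp. Col24a1 was at -0.85 ± 0.10 in TUM against CTL and rose by 0.44 ± 0.10 at day 3 (adjusted p = 0.00479) and 0.38 ± 0.10 by day 6 (adjusted p = 0.0103). The latter lost its call without TUM replicate 3 (0.31, adjusted p = 0.0557).

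Among the 6 type VI genes, the largest rises of the whole family were found. At day 3, 4 of them rose (13.4% of all genes did). Of these, 3 were still higher at day 6 (14.9% of all genes were), namely Col6a3, Col6a2 and the faintly read Col6a4. Col6a3 read 9.44, 9.60 and 9.55 in CTL, 9.31, 9.51 and 9.41 in TUM, 11.06, 11.11 and 10.81 in OFF3, and 10.54, 10.52 and 10.41 in OFF6. Muscle and day 0 tumours overlapped, and every array after withdrawal was above both. Col6a3 rose by 1.58 ± 0.09 at day 3 (adjusted p = 9.82e-08) and was 1.07 ± 0.09 above TUM at day 6 (adjusted p = 1.22e-06). Against CTL, TUM differed by -0.12 ± 0.09 (adjusted p = 0.225), a value that passed the test as a lower level under quantile, median, 75th percentile and cyclic loess scaling and with array weights.

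Col6a2 and Col6a1 lie next to each other on chromosome 10, and with Col6a3 they supply the 3 chains of the common type VI molecule. Col6a2 read 9.66, 9.66 and 9.71 in CTL, 9.79, 9.94 and 9.76 in TUM, 10.99, 10.92 and 10.89 in OFF3, and 10.39, 10.67 and 10.32 in OFF6. It was 1.10 ± 0.09 above TUM at day 3 (adjusted p = 1.33e-06) and 0.63 ± 0.09 at day 6 (adjusted p = 0.000114). Col6a1 read 9.50, 9.55 and 9.56 in CTL, 10.45, 10.48 and 10.36 in TUM, 11.29, 11.25 and 11.05 in OFF3, and 10.69, 10.85 and 10.42 in OFF6. Col6a1 differed from the other chains on day 0, when it was already 0.89 ± 0.10 above CTL (adjusted p = 3.69e-06) and Col6a2 was 0.15 ± 0.09 above (adjusted p = 0.125). It rose by 0.77 ± 0.10 at day 3 (adjusted p = 8.57e-05) and stood 0.22 ± 0.10 above TUM at day 6 (adjusted p = 0.119). Without OFF6 replicate 3 that last value was 0.34 and passed the test (adjusted p = 0.0129).

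The other type VI chain genes, Col6a4, Col6a5 and Col6a6, are neighbours on chromosome 9 and encode alternatives to the Col6a3 chain. All of them were lower in TUM than in CTL (45.9% of all genes were), with Col6a6 at -0.97 ± 0.12 (adjusted p = 8.87e-06). After withdrawal Col6a4 rose by 0.28 ± 0.07 at day 3 (adjusted p = 0.0106) and was still called higher at day 6. It was read faintly, with group means from 5.60 to 5.97. Col6a5 and Col6a6 differed by 0.22 ± 0.12 and 0.17 ± 0.12 at day 3 without passing the test. The 2 probe sets of Col6a5 disagreed, since the one not used gave -0.12 against CTL where the one used gave -0.68.

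**Figure D3:**
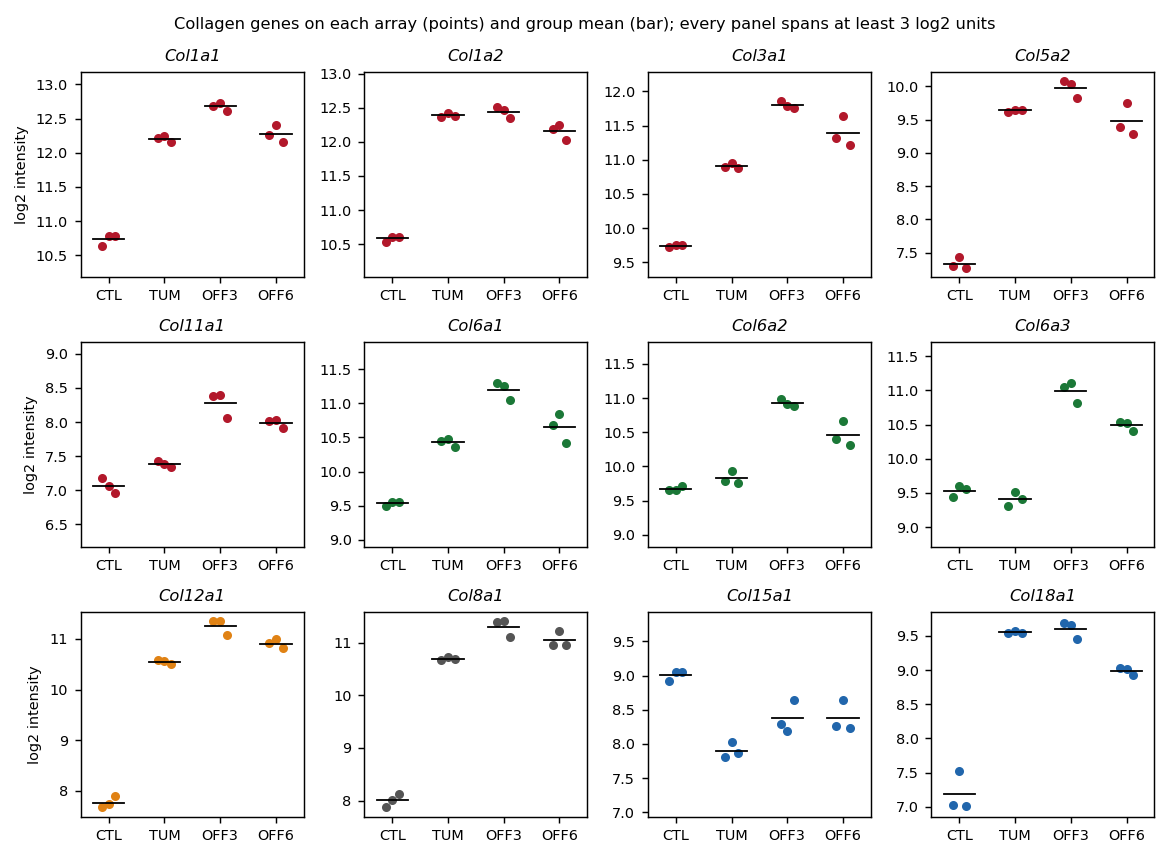
Log2 intensity of 12 collagen genes on each of the 12 arrays (points, 3 per group) with the group mean (bar), in control muscle (CTL), day 0 tumours (TUM) and 3 and 6 days off doxycycline (OFF3, OFF6); each panel spans at least 3 log2 units. Col6a3 is near 9.5 in CTL and TUM and above 10.8 in OFF3, while Col18a1 falls only by day 6.

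Of the 8 basement membrane genes, 3 rose and 0 fell at day 3, where 13.4% and 16% of all genes did. At day 6, 1 was higher and 1 lower, near the shares of all genes (14.9% and 16.6%). Col4a1 and Col4a2 encode the chains of the ordinary type IV network. Their starts lie 21 bases apart on opposite strands of chromosome 8. Col4a1 read 8.61, 8.53 and 8.67 in CTL, 8.20, 8.30 and 8.21 in TUM, 8.72, 8.64 and 8.53 in OFF3, and 8.46, 8.47 and 8.26 in OFF6. The day 0 tumours were below muscle on every array, and OFF3 reached the range of muscle. Col4a2 read 8.52, 8.64 and 8.55 in CTL, 8.41, 8.51 and 8.40 in TUM, 8.92, 8.91 and 8.65 in OFF3, and 8.54, 8.56 and 8.49 in OFF6. Each of the pair rose by 0.39 at day 3 (Col4a1 ± 0.07, adjusted p = 0.00153, and Col4a2 ± 0.08, adjusted p = 0.00194), and at day 6 the differences from TUM were 0.16 ± 0.07 and 0.09 ± 0.08, neither past the test. Without OFF6 replicate 3 the Col4a1 value was 0.23 and passed (adjusted p = 0.0483).

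Col15a1 and Col18a1 encode related collagens of basement membrane zones, and their patterns were opposite in the tumours. Col15a1 read 8.92, 9.06 and 9.05 in CTL, 7.81, 8.03 and 7.86 in TUM, 8.29, 8.19 and 8.65 in OFF3, and 8.26, 8.64 and 8.24 in OFF6. Muscle was the highest group, TUM the lowest, and the OFF3 and OFF6 arrays lay between them. The rise from TUM was 0.48 ± 0.13 at both times (adjusted p = 0.0133 and 0.0117). At day 3 it lost its call without TUM replicate 1 (0.43, adjusted p = 0.0574) or OFF3 replicate 3 (0.34, adjusted p = 0.0567), and at day 6 without TUM replicate 1 (0.43, adjusted p = 0.0517). Col18a1, whose protein yields the fragment endostatin, read 7.02, 7.52 and 7.02 in CTL, 9.55, 9.57 and 9.54 in TUM, 9.69, 9.67 and 9.46 in OFF3, and 9.03, 9.01 and 8.93 in OFF6. It was 2.37 ± 0.12 higher in TUM than in CTL (adjusted p = 1.13e-09), differed from TUM by 0.05 ± 0.12 at day 3 (adjusted p = 0.83), and fell by 0.56 ± 0.12 by day 6 (adjusted p = 0.00239). Even then it was 1.81 ± 0.12 above muscle (adjusted p = 2.3e-08).

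The remaining type IV genes Col4a3, Col4a4, Col4a5 and Col4a6, chains of specialised basement membranes such as those of the kidney, were read faintly, with group means from 5.51 to 6.91. Col4a3, Col4a4 and Col4a6 were lower in TUM than in CTL, with differences from -0.52 to -0.46. Of all genes at or below the median level, 58.1% were lower there. None of the 4 passed the test after withdrawal, where 13.4% of all genes rose and 16% fell at day 3. At day 6, 14.9% of all genes were higher and 16.6% lower.

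Of the 9 fibril-associated genes, 3 rose at day 3 and 0 fell, where 13.4% and 16% of all genes did. These collagens sit on the surface of fibrils and link them to other matrix. Col12a1 read 7.67, 7.75 and 7.89 in CTL, 10.59, 10.56 and 10.52 in TUM, 11.35, 11.35 and 11.07 in OFF3, and 10.91, 11.00 and 10.82 in OFF6. The 4 groups did not overlap, and the gap to muscle was the widest of all collagen genes in TUM, at 2.78 ± 0.09 (adjusted p = 2.3e-11), and in OFF3, at 3.49 ± 0.09 or 11.2-fold. From TUM it rose by 0.70 ± 0.09 at day 3 (adjusted p = 5.83e-05) and 0.35 ± 0.09 by day 6 (adjusted p = 0.00741). Col14a1, its close relative, read 8.72, 8.89 and 8.88 in CTL, 10.52, 10.47 and 10.50 in TUM, 11.02, 11.02 and 11.08 in OFF3, and 10.72, 11.22 and 10.64 in OFF6. Its OFF6 replicate 2 was above all OFF3 arrays. Col14a1 rose by 0.54 ± 0.12 at day 3 (adjusted p = 0.00418), and its difference of 0.37 ± 0.12 at day 6 (adjusted p = 0.0338) lost its call without OFF6 replicate 2 (0.19, adjusted p = 0.0514) or any 1 of TUM replicates 1 to 3.

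Col16a1 rose by 0.31 ± 0.08 at day 3 (adjusted p = 0.00821). The muscle-tendon junction collagen Col22a1 was at -0.66 ± 0.11 in TUM against CTL (adjusted p = 0.000146) and differed from TUM by 0.14 ± 0.11 and 0.10 ± 0.11 at days 3 and 6, neither past the test. Col19a1 read 6.73, 6.77 and 6.54 in CTL, 6.68, 6.84 and 6.72 in TUM, 6.46, 6.50 and 6.70 in OFF3, and 6.95, 7.10 and 6.95 in OFF6. OFF6 was above every other group. It was the only collagen gene higher at day 6 than at day 3 by the test (0.45 ± 0.09, adjusted p = 0.00912). Against TUM the day 6 value of 0.25 ± 0.09 (adjusted p = 0.0398) lost its call without TUM replicates 1 or 3 or any 1 of the OFF6 arrays, with adjusted p from 0.0581 to 0.141.

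Of the 6 short-chain network and other collagens, 2 rose at day 3 (13.4% of all genes did) and 3 were higher at day 6 (14.9% of all genes). Col8a1, the chain of a hexagonal network laid down by vessel and stromal cells, read 7.87, 8.01 and 8.13 in CTL, 10.66, 10.73 and 10.70 in TUM, 11.39, 11.41 and 11.12 in OFF3, and 10.96, 11.22 and 10.96 in OFF6. The tumour arrays were all far above muscle, and the arrays of OFF3 and OFF6 overlapped each other above TUM. It rose by 0.61 ± 0.10 at day 3 (adjusted p = 0.00049), and its day 6 value of 0.35 ± 0.10 (adjusted p = 0.0166) lost its call without TUM replicate 1 (0.33, adjusted p = 0.059) or OFF6 replicate 2 (0.26, adjusted p = 0.0527). Its partner Col8a2 was at -0.47 ± 0.11 in TUM against CTL, where Col8a1 was 2.69 ± 0.10 higher, and rose by 0.48 ± 0.11 at day 3 (adjusted p = 0.0039). Col10a1, the collagen of hypertrophic cartilage, was 0.30 ± 0.07 above TUM at day 6 (adjusted p = 0.00779).

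The 4 transmembrane collagens were all lower in TUM than in CTL, as were 45.9% of all genes. At day 3, 0 of 4 rose and 0 fell by the limma test (13.4% and 16% of all genes). Col13a1, which sits at the neuromuscular junction, was at -0.56 ± 0.12 in TUM against CTL (adjusted p = 0.00126). Its day 6 value of 0.35 ± 0.12 (adjusted p = 0.0442) lost its call without any 1 of the TUM arrays or without OFF6 replicates 1 or 3, with adjusted p from 0.0574 to 0.161. Col25a1, needed for motor innervation of muscle, was at -0.52 ± 0.14 in TUM against CTL (adjusted p = 0.00409) and differed from TUM by 0.26 ± 0.14 at day 3 (adjusted p = 0.202).

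Between day 3 and day 6, Col18a1, Col6a1, Col6a3, Col5a2, Col6a2 and 6 other collagen genes fell. With all 12 arrays in the fit, 11 of 44 collagen genes were lower in OFF6 than in OFF3, where 4.38% of all genes were, and 1 was higher, where 6.05% were. All 11 were among the 25 brighter members (7.61% of all brighter genes were lower), and 9 of them were among the 19 that had risen by day 3. Col18a1 fell by 0.61 ± 0.12, Col6a1 fell by 0.55 ± 0.10, Col6a3 fell by 0.51 ± 0.09, Col5a2 fell by 0.51 ± 0.11 and Col6a2 fell by 0.47 ± 0.09, while Col1a1 and Col3a1 each fell by 0.40, Col12a1 fell by 0.35, Col5a1 and Col4a2 each fell by 0.30, and Col1a2 fell by 0.29. Col15a1 did not differ by this test (0.0049 ± 0.13, adjusted p = 0.989). This comparison had little margin: in a limma fit of only its 6 arrays, 0 collagen genes and 30 of all genes were called, 13 collagen genes were lower and 1 higher at an unadjusted p under 0.05, and the lowest adjusted p of a collagen gene was 0.052. The count of 11 became 5 or 6 without OFF3 replicate 1, OFF3 replicate 2, OFF6 replicate 1 or OFF6 replicate 3, and 15 without OFF6 replicate 2, the array that stood apart.

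Set against muscle, the regressing tumours had about the share of higher genes among the collagens that they had among all genes. In OFF6, 14 collagen genes were higher than in CTL (28.1% of all genes were) and 19 lower (36.1%), or 12 lower without CTL replicate 1. In OFF3 the counts were 14 higher (28.4%) and 16 lower (41.4%). Col12a1 stood 3.14 ± 0.09, Col8a1 3.04 ± 0.10 and Col5a2 2.14 ± 0.11 above muscle at day 6. Col6a3 and Col6a2, which had not differed from CTL by the test on day 0, were 0.96 ± 0.09 and 0.78 ± 0.09 above it. Col4a1 and Col4a2 at day 3 were 0.03 ± 0.07 and 0.26 ± 0.08 above CTL, and Col4a2 alone passed the test (adjusted p = 0.00909), a call lost under quantile, median and 75th percentile scaling. Under quantile normalisation Col4a1 was -0.20 from CTL and passed as lower (adjusted p = 0.021). Of all genes called against CTL, 40.7% were higher in OFF3 (27.3% to 51.1% under the other scalings) and 43.8% in OFF6 (26.7% to 52%). Each group was compared with the same muscle arrays.

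The chains of 1 molecule did not always move by equal amounts. For each array the log2 value of one chain gene was set against that of its partner. The gap itself depends on the probes, so only its change between groups was read. The Col6a3 minus Col6a1 gap averaged -0.01 ± 0.05 (SD, n = 3) in CTL, -1.02 ± 0.10 in TUM, -0.21 ± 0.05 in OFF3 and -0.16 ± 0.16 in OFF6. It was lower on every TUM array than on every array of the other groups. That of Col1a1 minus Col1a2 averaged 0.14 ± 0.04, -0.18 ± 0.03, 0.24 ± 0.05 and 0.13 ± 0.04 in the same order, again with TUM below all others. For Col5a2 minus Col5a1 the step was between muscle (-0.79 ± 0.16) and TUM (0.57 ± 0.02). The Col4a2 minus Col4a1 gap was 0.21 ± 0.01 in TUM and 0.20 ± 0.08 in OFF3, and the arrays of TUM and OFF3 overlapped. With 3 arrays against 3, an exact two-sided permutation test cannot go below p = 0.1, which 13 of the 20 such comparisons reached (0.154 adjusted over the 20).

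The genes that make, bind and break down collagen moved in both directions after withdrawal. Newly made chains are hydroxylated and folded in the endoplasmic reticulum, trimmed outside the cell, cross-linked by lysyl oxidases, and later bound by receptors or degraded. Of 49 measured genes of these 6 roles, 36 were higher in TUM than in CTL (30.3% of all genes were) and 9 lower (45.9%). At day 3, 11 rose (13.4% of all genes) and 12 fell (16%). By day 6, 5 were higher (14.9%) and 15 lower (16.6%). The list's median difference was -0.0039 at day 3 and -0.12 at day 6, where those of the collagen genes were 0.23 and 0.20. The balance at day 3 depended on scaling, with 17 higher and 13 lower under quantile, 19 and 10 under 75th percentile, and 18 and 9 under cyclic loess scaling. Day 6 kept more falls than rises under these 3, with 15 lower in each. Fkbp10, Adamts2, Loxl2 and Gp6 were not among the genes measured by a probe set of 1 symbol.

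By role, 1 of 15 hydroxylation and glycosylation genes rose and 2 fell at day 3, and 0 were higher and 3 lower by limma at day 6. These counts lie near the shares of all genes, 13.4% higher and 16% lower at day 3 and 14.9% and 16.6% at day 6. P4ha1, a catalytic subunit of prolyl 4-hydroxylase, fell by 0.71 ± 0.11 at day 3 (adjusted p = 0.00031) and 0.53 ± 0.11 at day 6, while P4ha2 differed by -0.01 ± 0.16 at both. P3h4, a partner of the lysyl hydroxylase complex, fell by 0.53 ± 0.08 and P3h3 of the same complex rose by 0.50 ± 0.11 at day 3. Serpinh1 (HSP47), the collagen-specific chaperone, had been 1.77 ± 0.07 higher in TUM than in CTL and fell by 0.22 ± 0.07 at day 3 (adjusted p = 0.0262) and 0.34 ± 0.07 at day 6 (adjusted p = 0.00156). Creb3l1, a transcription factor of the endoplasmic reticulum that acts on type I collagen genes, fell by 0.82 ± 0.10 and 1.01 ± 0.10. In the folding and export list as a whole, 3 of 7 fell and 0 rose at day 3 (16% and 13.4% of all genes), and 4 of 7 were lower at day 6 (16.6%).

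Trimming and cross-linking genes went both ways. Bmp1, the procollagen C-proteinase, rose by 0.27 ± 0.06 at day 3 and its relative Tll1 by 1.05 ± 0.22. Of the C-proteinase enhancers, Pcolce2 rose by 0.98 ± 0.24 and Pcolce fell by 0.23 ± 0.07. Adamts14, an N-proteinase, fell by 0.51 ± 0.12. Lox, the first lysyl oxidase, was 3.72 ± 0.09 higher in TUM than in CTL and fell by 0.42 ± 0.09 only by day 6 (adjusted p = 0.00341). Loxl4 fell by 1.34 ± 0.10 and Loxl3 by 0.47 ± 0.11 at day 3, while Loxl1, best known from elastic fibres, rose by 0.55 ± 0.08. Of the 5 cross-linking genes measured, 2 rose and 2 fell at day 3 (13.4% and 16% of all genes). At day 6, 2 were higher and 3 lower (14.9% and 16.6% of all genes).

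Among receptors, Itga11, the integrin alpha chain of fibroblasts that binds fibrillar collagen, had the largest rise of the list. It read 8.11, 8.31 and 8.34 in CTL, 7.05, 7.15 and 7.09 in TUM, 9.12, 9.04 and 8.93 in OFF3, and 8.54, 8.72 and 8.34 in OFF6. The day 0 tumours were below muscle and the regressing tumours above TUM on every array. Itga11 rose by 1.94 ± 0.10 at day 3 (adjusted p = 5.16e-08) and was 1.44 ± 0.10 above TUM at day 6. Itga1, which prefers type IV collagen, rose by 0.64 ± 0.12 at day 3. Ddr2, a receptor kinase for fibrillar collagen, fell by 0.29 ± 0.06 and 0.45 ± 0.06, and Mrc2, which takes up collagen for degradation, differed by -0.16 ± 0.09 at day 3 and fell by 0.58 ± 0.09 by day 6. Of the degrading enzymes, Mmp9, a gelatinase, fell by 2.88 ± 0.23 and Ctsk, cathepsin K, by 1.43 ± 0.19 at day 3, while Mmp13, a collagenase, rose by 1.21 ± 0.29 and Mmp2, the other gelatinase, by 0.59 ± 0.12. At day 6 Mmp13 was 0.23 ± 0.29 and Mmp2 0.15 ± 0.12 from TUM, neither past the test.

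**Figure D4:**
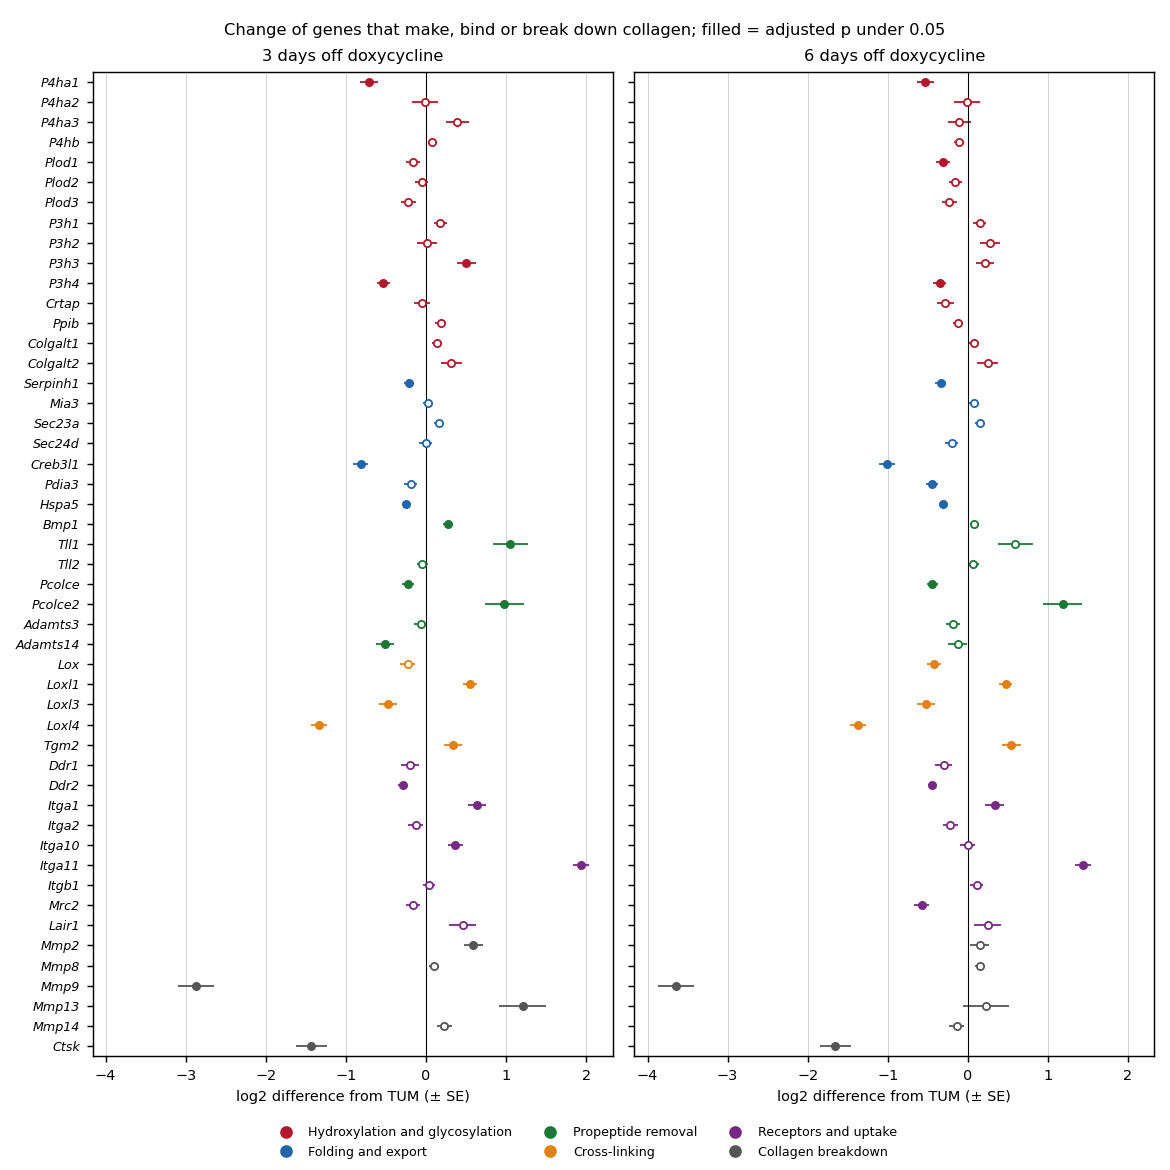
Log2 difference from day 0 tumours (± SE) of 49 genes that make, trim, cross-link, bind or break down collagen, 3 days (left) and 6 days (right) after doxycycline removal, coloured by role; filled points have an adjusted p under 0.05. Itga11 lies farthest to the right and Mmp9 farthest to the left at day 3.

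Markers of several cell types moved in the same samples. Of 12 fibroblast markers, 10 rose and 0 fell by limma at day 3 (13.4% and 16% of all genes). At day 6, 11 were higher and 0 lower (14.9% and 16.6% of all genes). Their summed intensity was 13500 to 14290 in CTL, 15360 to 16170 in TUM, 27720 to 30550 in OFF3 and 23250 to 31290 in OFF6. That of the 44 collagen genes was 13140 to 13320, 24910 to 26310, 34490 to 37300 and 26470 to 31560 in the same order. Such sums are weighted to the brightest genes, in the fibroblast list Fn1, Postn and Dcn, which averaged 12.66, 11.76 and 11.08 in TUM. Dpt, dermatopontin, and Dcn, decorin, differed by -2.33 ± 0.21 and -1.39 ± 0.15 in TUM against CTL, where the fibrillar genes Col1a1, Col1a2 and Col3a1 were higher. Other markers of the list went the same way as these collagens. Postn, Fn1, Tcf7l2, Fbln1 and Mfap5 read higher on every TUM array than on every CTL array. Of the 12 markers, 5 thus lay wholly above CTL in TUM and 7 wholly below. The share of all genes that did so is not given here, so this split only describes the list. Dpt and Dcn rose after withdrawal, by 2.52 ± 0.21 and 1.43 ± 0.15 at day 3. At day 6 Dpt read 10.17, 11.21 and 10.23, highest on OFF6 replicate 2, the array that stood apart. On day 0, 4 of the 12 fibroblast markers were higher and 6 lower than in CTL, near the shares of all genes (30.3% and 45.9%).

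All 6 endothelial markers rose at day 3 (13.4% of all genes did), beside Col4a1, Col4a2 and Col15a1. On day 0 all 6 endothelial markers were lower in TUM than in CTL (45.9% of all genes were). Their sum was 5182 to 5312 in CTL, 2913 to 3024 in TUM, 4361 to 4767 in OFF3 and 3447 to 4098 in OFF6. Of 7 markers of pericytes and smooth muscle, 6 rose and 1 fell at day 3 (13.4% and 16% of all genes). Their sums were 6471 to 6663 in TUM and 8736 to 9192 in OFF3. Of 8 myofibre markers 7 rose (13.4% of all genes), with sums of 19870 to 21270 in TUM and 33970 to 43040 in OFF3, against 64170 to 66270 in CTL. Of 5 tendon markers 3 rose and 0 fell (13.4% and 16% of all genes), with sums of 5205 to 5359 in TUM and 7160 to 8771 in OFF3. The tendon marker Scx, a transcription factor, differed by -0.05 ± 0.17 at day 3 and rose by 0.74 ± 0.17 by day 6.

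Of 6 macrophage markers 1 rose and 1 fell at day 3, near the shares of all genes (13.4% and 16%). Their sums were 10490 to 10540 in TUM, 11530 to 12860 in OFF3 and 7521 to 12060 in OFF6. None of 5 osteoblast markers passed the test at day 3, where 13.4% of all genes rose and 16% fell. Their sums were 202 to 222 in TUM and 203 to 225 in OFF3, and Sp7, a defining osteoblast factor, averaged 5.15 and 5.13. None of 3 Schwann cell and 4 adipocyte markers passed either, with sums of 192 to 216 and 584 to 666 in TUM and 200 to 309 and 623 to 803 in OFF3. Of 5 epithelial markers 2 fell and 0 rose (16% and 13.4% of all genes). Their sums were 3977 to 4413 in TUM and 1449 to 1555 in OFF3, and Krt8 supplied the fall (1.67 ± 0.16). The part of fibroblast, vessel, myofibre and tendon RNA in the collagen rises was not tested.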

How the data were processed

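Per the submitters' processing notes, the authors summarised the probes of each array with RMA (the version is not given in the sources used here), and the deposited values are intensity on a linear scale. They were put on the log2 scale here; the deposited table gives no other log2 value. No background or normalisation step was added. Of 34760 probe sets, 21640 carried 1 gene symbol in the platform annotation, 1321 several and 11799 none, and the 19937 genes of the first kind were tested. A gene with several probe sets took the one with the highest mean.

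One linear model (limma 3.58.1 in R 4.3.3) was fitted to 12 arrays in 4 groups, with moderated variances, a median of 12.2 residual degrees of freedom and a median SE of 0.0863. Benjamini-Hochberg adjustment was made within each of 6 comparisons, and p under 0.05 was the threshold. Comparisons that share arrays are not independent. The number of arrays limits the precision. On data simulated for OFF3 minus TUM with 19937 genes, the test recovered 89.6%, 97% and 100% of genes changed 1.5-, 2- and 4-fold. Of its calls, 8.17% were unchanged genes. The simulation changed only 67, 67 and 66 genes by these amounts and drew independent noise with the variances of the fit, so real data may do worse.

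The members, the lists and the alternatives were chosen with earlier results of these data known. Named members were 21 collagen genes set by role, those at least 2-fold different, and the strongest exception of a class; named list genes were those with the largest difference in their role and 6 set by role. Col5a3, Col6a4, Col6a5, Col8a2, Col10a1, Col11a2, Col16a1 and the faint type IV genes, and a few list genes such as Acan and Sp7, were named after their values were seen. Figures were drawn with matplotlib 3.10.9.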

Additional observations from a re-analysis of the deposited data

Results flagged for a closer look

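For 12 collagen genes the withdrawn tumours differed between the times by a test of OFF6 against OFF3 itself, which bears on the 2 effects against the shared TUM arrays. The differences were -0.61 for Col18a1, -0.55 for Col6a1, -0.51 for Col6a3, -0.51 for Col5a2, -0.47 for Col6a2, -0.40 for Col3a1, -0.40 for Col1a1, -0.35 for Col12a1, -0.30 for Col5a1, -0.30 for Col4a2 and -0.29 for Col1a2, all lower at day 6, and 0.45 for Col19a1, higher at day 6. The calls of Col18a1, Col1a1, Col6a1, Col6a2 and Col6a3 were lost under 2 of 19 other settings, the fit of only 6 arrays and the 2-fold minimum. Those of Col12a1, Col1a2, Col3a1, Col4a2 and Col5a2 were lost under 7 of 19, and that of Col5a1 under 6.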

How the results depend on the processing

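The alternatives changed 1 choice at a time. Collagen genes higher and lower, by setting, were as follows. At day 3 against TUM (19 and 0), array weights gave 33 and 1, a 2-fold minimum 2 higher, and quantile and cyclic loess normalisation 1 lower each. At day 6 (15 and 2), genes above the median level gave 9 higher, array weights 25 and 4, an adjusted p under 0.01 gave 8 and 1, a 2-fold minimum 1 and 0, and quantile, 75th percentile and cyclic loess scaling 1 lower each. For TUM against CTL (27 lower), genes above the median level gave 11 lower and a 2-fold minimum 1. For OFF6 against OFF3 (1 and 11), array weights gave 3 and 18, the 6 arrays alone 0 and 0 by limma (14 at an unadjusted p under 0.05), a 2-fold minimum 0 and 0, an adjusted p under 0.01 gave 5 lower, and genes above the median level 0 higher. For OFF3 against CTL (16 lower), genes above the median level gave 4 lower, median and 75th percentile centring 25 each, and a 2-fold minimum 0. For OFF6 against CTL (14 and 19), a 2-fold minimum gave 9 and 0, genes above the median level 8 lower and an adjusted p under 0.01 gave 11 lower. Testing only genes above the median level leaves 25 collagen genes by construction; the cause of the other shifts was not tested.

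The median over collagen genes moved too. In genes above the median level it was 0.39 for OFF3 minus TUM, -0.12 for TUM minus CTL, -0.26 for OFF6 minus OFF3, 1.16 for OFF3 minus CTL and 0.78 for OFF6 minus CTL. Quantile normalisation gave 0.13 for OFF6 minus TUM and -0.28 for OFF6 minus CTL. Centring on the median gave -0.51 for TUM minus CTL, -0.30 for OFF3 minus CTL and -0.36 for OFF6 minus CTL, and on the 75th percentile -0.62, -0.32 and -0.38. Cyclic loess gave -0.22 for TUM minus CTL and -0.11 for OFF6 minus CTL. The mean of a gene's probe sets or the most variable one gave -0.13 for OFF6 minus CTL, as did array weights. Cyclic loess was added after seeing the data. The value of Col4a1 for OFF3 minus CTL reversed under quantile normalisation, to -0.20.

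With each array left out in turn, collagen genes higher and lower ranged from 16 to 20 and 0 to 1 for OFF3 minus TUM, 9 to 15 and 1 to 3 for OFF6 minus TUM, 11 to 11 and 23 to 26 for TUM minus CTL, 1 to 1 and 5 to 15 for OFF6 minus OFF3, 14 to 14 and 14 to 17 for OFF3 minus CTL, and 14 to 15 and 12 to 22 for OFF6 minus CTL (12 without CTL replicate 1). The medians ranged from 0.18 to 0.31, 0.16 to 0.22, -0.38 to -0.30, -0.15 to -0.0039, -0.19 to -0.04 and -0.23 to -0.12 in that order. The labels number replicates alike, but same-numbered arrays did not pair: of 18 correlations of their deviations, from -0.387 to 0.249, 3 were above 0.1. With the replicate number as a block the counts were 19 and 0, 12 and 2, 11 and 26, 1 and 12, 14 and 14, and 14 and 17.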
